A study of Homo sapiens with 18 samples.

Results

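The genes described here encode the nuclear subunits of the oxidative phosphorylation machinery, measured in a lung cancer cell line and in a pair of sublines resistant to the EGFR inhibitor erlotinib. They were taken by a rule on gene names, chosen with earlier results of these data known. The rule took probes whose annotated symbol, current or older, began with NDUFA, NDUFB, NDUFC, NDUFS or NDUFV, leaving out the NDUFAF assembly factors. It also took symbols that began with SDHA to SDHD, UQCR, CYC1, COX4 to COX8 or ATP5. This gave 114 of the array's 48803 probes and 84 of its 18849 named genes: 33 genes of complex I, 3 of complex II, 9 of complex III, 18 of complex IV, 16 of complex V and 5 others. Of these 84 genes, 75 passed the filter on dim probes and were tested among 11820 genes in all. The 5 others were the ATP synthase inhibitor ATP5IF1, the factors DMAC2 and DMAC2L, whose older symbols began with ATP5, and the annotated pseudogenes ATP5F1EP2 and UQCRBP1.

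HCC827 is a non-small cell lung cancer line with an activating EGFR mutation, and ER3 and T15-2 are sublines that originated from it and are resistant to erlotinib, an inhibitor of the EGFR kinase. All 3 lines had a night of starvation and then 12 hours with 1 µM erlotinib or with the solvent DMSO, so the controls were starved as well. Each of the 6 groups had 3 arrays, 18 in all, of biotin-labelled cRNA from total RNA on Illumina BeadChips. Samples of a group carry numbers, but no label ties them to separate cultures, and the p-values therefore cover the spread between these samples alone. No source used here says how the sublines were selected or whether each is a single clone. In a lysate, fewer cells expressing a gene and less RNA per cell cannot be told apart.

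Oxidative phosphorylation takes electrons from NADH at complex I and from succinate at complex II, passes them through ubiquinone, complex III and cytochrome c to oxygen at complex IV, and uses the proton gradient that complexes I, III and IV build to make ATP at complex V. A few core subunits are encoded in mitochondrial DNA, and the remainder, which are the genes measured here, are encoded in the nucleus and imported. Nuclear subunit genes are often bound at their promoters by NRF1, by ETS factors such as GABP, by YY1 and by SP1, and their transcripts tend to move together across tissues.

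RefSeq promoters (GRCh38.p14; 250 bases before to 50 after the annotated start) were found for 60 of the 75 tested genes. Exact matches on either strand were counted for 4 motifs, each on its own and without removing overlaps between them. The NRF1 consensus was present in 15 of the 60 promoters (25%), against 6.29% of 27303 RefSeq promoters of the same length. Those 27303 were not limited to the genes tested here. The ETS motif CCGGAAG was in 19 (31.7%, against 10.7%), the YY1 motif AAGATGGC in 9 (15%, against 3.03%) and the SP1 motif GGGCGG in 34 (56.7%, against 44.6%). Of the 4 promoters printed here, SDHA and UQCR10 belong to genes whose called response to erlotinib differed between the lines. Those calls were made with quantile normalisation and did not pass with median scaling, both described below. The UQCR10 call in ER3 was also lost without ER3 erlotinib replicate 1, an array described below. ATP5PO and ATP5PF belong to the subunits of chromosome 21 that were lower in T15-2. Capitals mark matches to the NRF1, ETS or YY1 letters, 4 of them in the SDHA promoter, and a match is a description of these letters and not a measured binding site.
SDHA promoter, chr5:218070-218369, plus strand: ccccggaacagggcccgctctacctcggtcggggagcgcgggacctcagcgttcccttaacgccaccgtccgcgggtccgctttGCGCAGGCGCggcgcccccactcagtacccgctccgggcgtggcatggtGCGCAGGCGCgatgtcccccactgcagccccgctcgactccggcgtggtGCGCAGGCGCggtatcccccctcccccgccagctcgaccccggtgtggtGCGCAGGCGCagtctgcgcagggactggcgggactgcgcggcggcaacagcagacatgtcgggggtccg
UQCR10 promoter, chr22:29767119-29767418, plus strand: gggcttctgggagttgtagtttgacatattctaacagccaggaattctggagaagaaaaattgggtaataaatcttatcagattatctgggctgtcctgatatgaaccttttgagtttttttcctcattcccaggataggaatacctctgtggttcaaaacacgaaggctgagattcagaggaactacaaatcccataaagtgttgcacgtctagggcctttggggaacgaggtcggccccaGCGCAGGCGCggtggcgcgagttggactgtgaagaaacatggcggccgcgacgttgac
ATP5PO promoter, chr21:33915755-33916054, minus strand: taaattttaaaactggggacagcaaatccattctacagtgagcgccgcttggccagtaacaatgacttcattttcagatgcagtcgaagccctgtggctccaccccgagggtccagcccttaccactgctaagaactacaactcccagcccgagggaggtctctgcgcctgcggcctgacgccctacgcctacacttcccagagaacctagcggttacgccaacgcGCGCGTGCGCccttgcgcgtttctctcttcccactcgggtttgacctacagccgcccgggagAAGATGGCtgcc
ATP5PF promoter, chr21:25735005-25735304, minus strand: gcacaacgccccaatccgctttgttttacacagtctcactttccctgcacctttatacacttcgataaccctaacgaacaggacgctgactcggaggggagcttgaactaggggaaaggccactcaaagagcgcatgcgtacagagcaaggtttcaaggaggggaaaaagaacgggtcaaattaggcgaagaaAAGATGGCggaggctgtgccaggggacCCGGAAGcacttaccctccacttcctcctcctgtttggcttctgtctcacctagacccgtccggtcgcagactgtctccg

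Most of the genes were well measured. Of the 75 tested genes, 74 were above background on all 18 arrays, at a detection p-value below 0.05. The exception was the complex I accessory subunit NDUFB4, above background on 9 arrays and on none of the 3 HCC827 erlotinib arrays. None of its comparisons with that group was called. NDUFB1, NDUFC2, NDUFS1, UQCR11 and ATP5MC3 were above background on every array but were dim. Their lowest detection p-values were 0.00395, 0.00395, 0.00132, 0.00264 and 0.00132 in that order, so their changes were measured nearer to background. Untested genes were mostly tissue-restricted forms of complex IV. COX4I2, COX6A2, COX6B2, COX7A1, COX7B2, COX8C and COXFA4L2 (older symbol NDUFA4L2) were not above background on any array, with lowest detection p-values of 0.0856, 0.105, 0.0593, 0.203, 0.0883, 0.0553 and 0.0698 in that order. Their widely expressed partners COX4I1, COX6A1, COX6B1, COX7A2, COX7B, COX8A and COXFA4 (older symbol NDUFA4) were above background on all 18 arrays. The complex I subunit NDUFA5 was above background on no array (lowest detection p-value 0.0777) and NDUFS6 on 1 (0.0461). These 9 genes have no level here. SDHA, UQCRH, UQCRHL, ATP5F1EP2 and UQCRBP1 have near-identical copies elsewhere in the genome that a probe could also detect, so their values are uncertain in source.

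The arrays had 15698 to 17869 probes above background, and arrays of a group correlated at 0.991 to 0.997 across genes. Of 10 markers of lung adenocarcinoma and epithelium, 9 were above background on all 18 arrays and SFTPB on 13. Of 5 fibroblast markers none was above background on all arrays, and COL1A2, COL3A1 and PDGFRB were on none; PTPRC of the leukocytes and CDH5 and KDR of the endothelium were also on none, while CD68 and PECAM1 were above background on all 18.

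Replicate 1 of the ER3 erlotinib group stood apart from every other array in these genes. On the log2 scale, with each gene centred on its mean over the arrays, the median of the 75 genes was -0.45 on that array, against -0.08 and -0.10 on the other 2 arrays of its group and between -0.02 and 0.11 on the 15 arrays of the other groups. Its difference from the mean of its 2 companions had a median of -0.38 over the 75 genes and of 0.03 over all genes. On it 60 of the 75 genes had the lowest value of the 3 arrays, as did 31% of all genes, and 31 of the 75 were more than 0.5 below the mean of the other 2, as were 2.50% of all genes. The deviation was unequal between complexes. The centred median on this array was -0.58 for complex IV, -0.45 for complexes I and V, -0.16 for complex III and -0.09 for complex II.

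**Figure D1:**
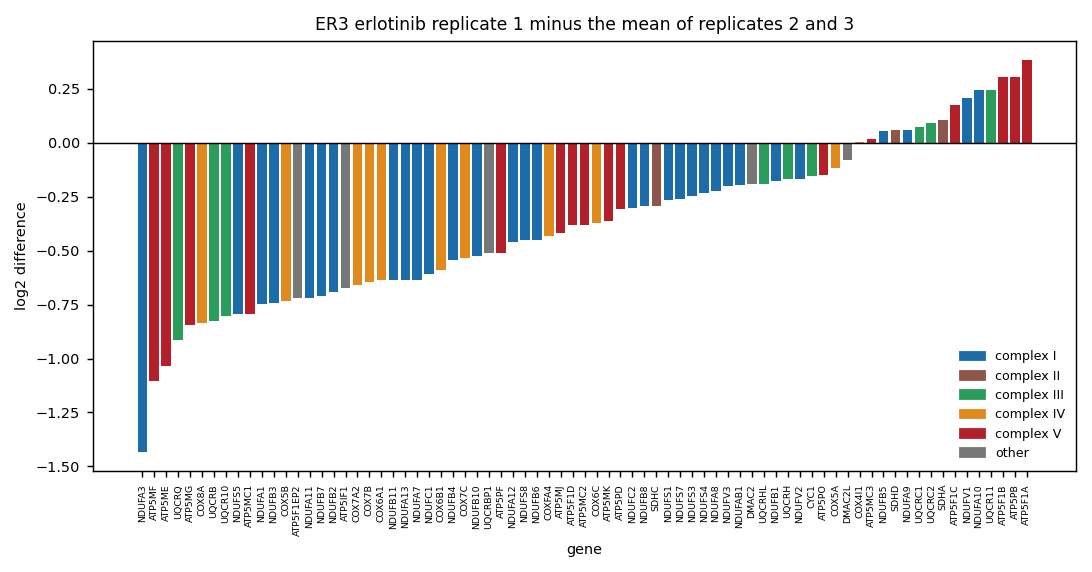
Each bar is a tested gene, coloured by complex, and shows its log2 signal on ER3 erlotinib replicate 1 minus the mean of replicates 2 and 3. NDUFA3 lies lowest at -1.43, and ATP5F1A, ATP5PB and ATP5F1B lie above 0 at 0.38, 0.31 and 0.30.

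Of the 4 lowest genes on that array, all encode accessory subunits. NDUFA3, a membrane-arm subunit of complex I, read 9.16 against 10.58 and 10.62, a difference of -1.43. The ATP synthase membrane subunits ATP5MF (f) and ATP5ME (e) differed by -1.11 and -1.03, and UQCRQ, a small subunit of complex III, by -0.91. Core subunits lay on both sides of 0. ATP5F1A and ATP5F1B, the alpha and beta subunits that form the catalytic head of ATP synthase, differed by 0.38 and 0.30. ATP5F1C (gamma) differed by 0.18, NDUFV1 by 0.21 and SDHA by 0.11. Against these, the complex I core subunits NDUFS8, NDUFS1, NDUFS7 and NDUFS3 differed by -0.45, -0.27, -0.26 and -0.25, and the ring subunit ATP5MC1 by -0.79. NDUFV2 and CYC1 differed by -0.17 and -0.15. Accessory subunits also lay on both sides, with NDUFA10 and UQCR11 at 0.24 each, NDUFA9 and NDUFB5 at 0.06 each and COX4I1 at 0.01. In other gene lists the median difference from the same 2 arrays was -0.14 for 71 cytosolic ribosomal proteins, -0.04 for assembly factors, 0.03 for regulators, 0.13 for the tricarboxylic acid cycle and 0.34 for cytochrome c and its lyase (2 genes). The array had 17258 probes above background, within the range of the others. What sets it apart was not tested. Results in ER3 under erlotinib are therefore given with all 18 arrays and again without it (17 arrays, leaving 2 in that group). Without it the median residual SD of the 75 genes fell from 0.16 to 0.10, while that of all genes was 0.14 both times, so leaving it out also moves calls in the other groups, which share this estimate of spread.

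**Figure D2:**
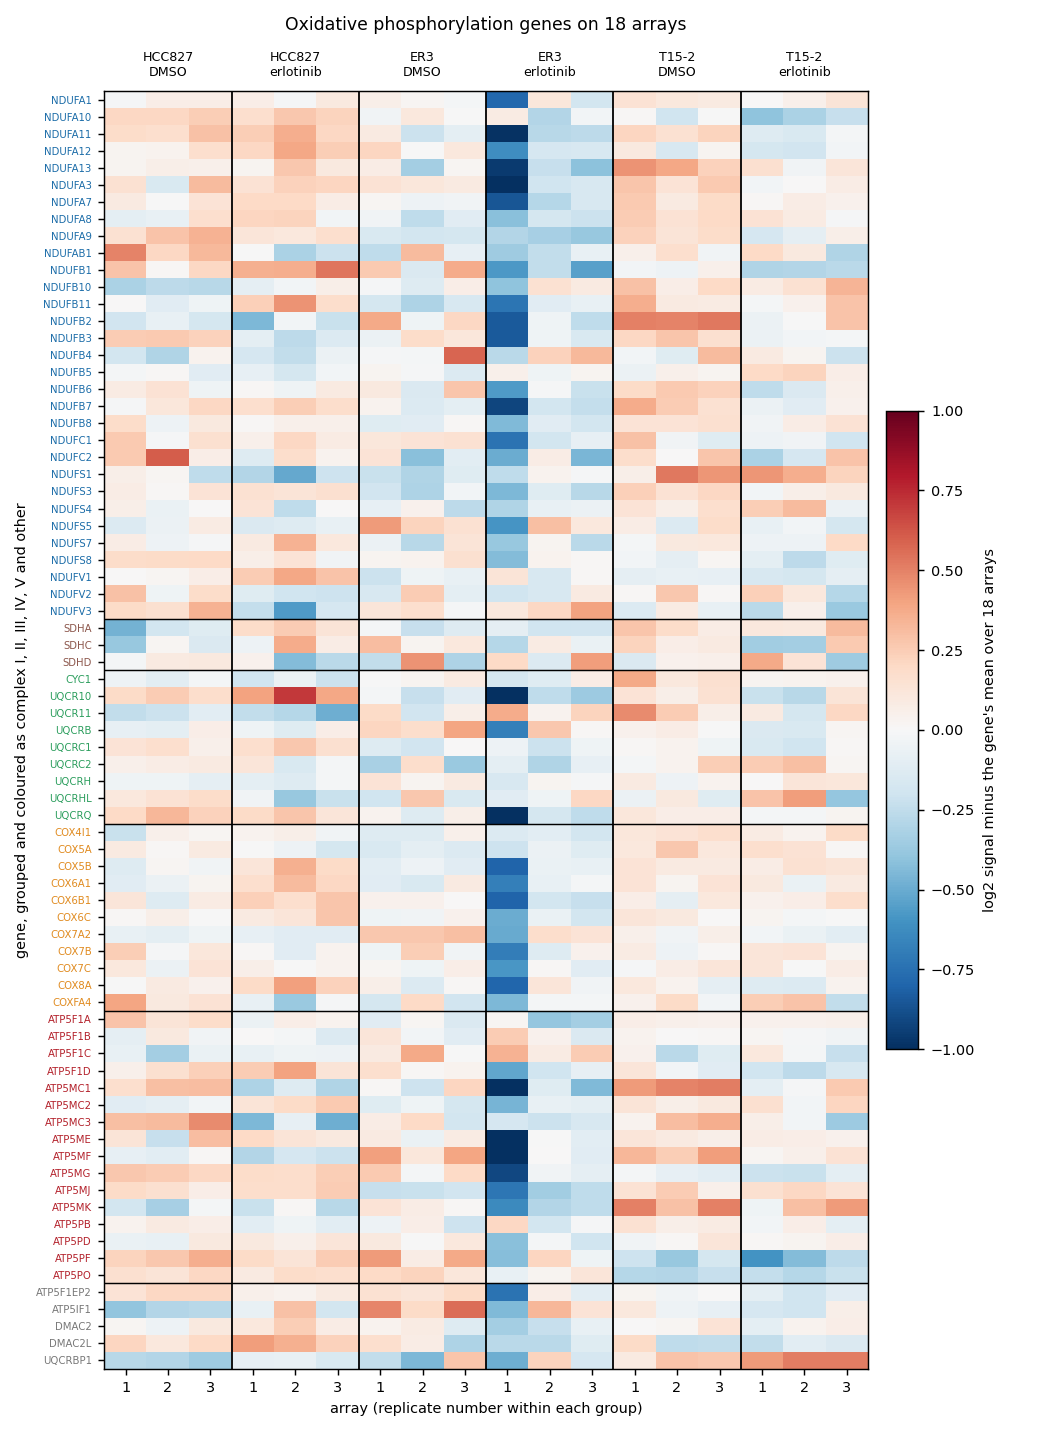
The heat map shows the log2 signal of the 75 tested genes (ordered by complex) on the 18 arrays, each gene centred on its mean. The column of ER3 erlotinib replicate 1, with a median of -0.45, is lower than every other column.

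The first comparison asked what erlotinib did to these transcripts in HCC827, the sensitive line. Subunit genes changed in both directions, and their median change was -0.01 on the log2 scale, against 0.01 for all genes. After 12 hours 3 of the 75 genes were higher (NDUFV1, SDHA and ATP5MC2) and 5 lower (NDUFAB1, NDUFB3, NDUFV3, ATP5MC1 and ATP5MC3), in limma's moderated test at an adjusted p below 0.05 over all 11820 genes, against 19.2% of all genes higher and 18.5% lower. None of the 9 genes of complex III or the 11 of complex IV was called, where 1 and 2 of them had an unadjusted p below 0.05. Scaling each array to its median in place of quantile normalisation brought the median of all genes in this comparison to -0.10 and that of the 75 genes to -0.19, and 0 genes were then called higher and 10 lower. Here and below, counts under median scaling have no share of all genes beside them. They show how calls depend on the scaling and are no result about these genes.

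Subunit c of ATP synthase, which forms the rotating ring in the membrane, is made from 3 genes that encode the same mature protein, and the 3 did not move together. ATP5MC3 read 6.41, 6.42 and 6.58 in DMSO and 5.66, 6.03 and 5.62 under erlotinib, and ATP5MC1 read 11.58, 11.71 and 11.72 in DMSO and 11.11, 11.29 and 11.11 under erlotinib. Both were lower on every erlotinib array than on any DMSO array. ATP5MC3 fell by 0.70 ± 0.13 (log2, SE; 1.62-fold, limma adjusted p = 0.000292) and ATP5MC1 by 0.50 ± 0.17 (1.42-fold, limma adjusted p = 0.0226). ATP5MC2 rose from 12.50, 12.53 and 12.59 to 12.74, 12.80 and 12.87, again without overlap, a change of 0.27 ± 0.10 (limma adjusted p = 0.0426). The call for ATP5MC2 was lost when any HCC827 array was left out and under median scaling (0.08, limma adjusted p = 0.727), and its other probe gave -0.20 (limma adjusted p = 0.264). The other probe of ATP5MC1 gave -0.57 (limma adjusted p = 0.012).

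Within complex I the called genes belong to several modules. NDUFAB1, the acyl carrier protein that is both a complex I subunit and a part of mitochondrial fatty acid synthesis, read 11.10, 10.81 and 10.92 in DMSO and 10.60, 10.28 and 10.38 under erlotinib, and fell by 0.52 ± 0.14 (limma adjusted p = 0.00719). NDUFV3, an accessory subunit of the NADH-oxidising module, read 6.68, 6.65 and 6.83 and then 6.25, 5.92 and 6.32, and fell by 0.56 ± 0.12 (limma adjusted p = 0.00126). The accessory subunit NDUFB3 went from 11.47, 11.48 and 11.45 to 11.12, 10.96 and 11.08, a change of -0.41 ± 0.14 (limma adjusted p = 0.0258). In each of the 3 the groups did not overlap, although a second probe of NDUFV3 gave -0.03 (limma adjusted p = 0.871) and that of NDUFB3 -0.28 (limma adjusted p = 0.12). NDUFV1, the flavoprotein that accepts electrons from NADH, moved the other way, from 10.78, 10.79 and 10.84 to 11.03, 11.16 and 11.05. That was a rise of 0.28 ± 0.09 (limma adjusted p = 0.015), but under median scaling its sign turned, at -0.003 (limma adjusted p = 0.991).

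SDHA, the flavoprotein of complex II that oxidises succinate and so also serves the tricarboxylic acid cycle, had the largest rise of the 75. It read 10.02, 10.30 and 10.37 in DMSO and 10.67, 10.74 and 10.61 under erlotinib, with no overlap, a change of 0.44 ± 0.10 (1.36-fold, limma adjusted p = 0.00168). Its other probe gave 0.49 (limma adjusted p = 0.00226), whereas median scaling gave 0.15 (limma adjusted p = 0.506). The ubiquinone-binding membrane anchors of the complex did not pass the test: SDHC changed by 0.30 ± 0.15 (limma adjusted p = 0.138) and SDHD by -0.28 ± 0.19 (limma adjusted p = 0.283). Without the ER3 array described above, 10 genes were higher and 5 lower in HCC827 (19.8% and 18.9% of all genes). The additional genes were COX8A, NDUFB10, COX5B, COX6A1, UQCR10, ATP5IF1 and NDUFB11, with changes of 0.24 to 0.34.

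**Figure D3:**
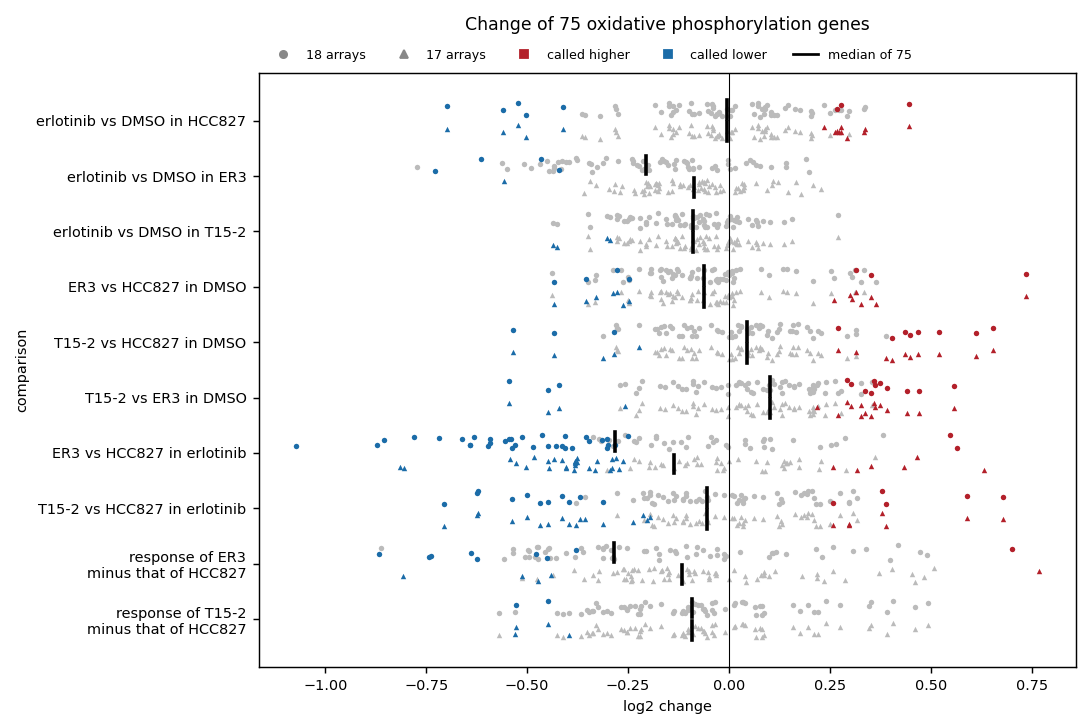
Each point is a tested gene's log2 change in a comparison, with circles for the fit of 18 arrays and triangles for 17 arrays, and colour for genes past an adjusted p of 0.05 (red higher, blue lower). Black bars mark the median of the 75 genes, which lies furthest below 0, at -0.28, in ER3 against HCC827 under erlotinib and in the difference between their responses.

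In the resistant sublines most estimates for erlotinib lay below 0 with quantile normalisation, and few subunit genes passed the test. In ER3 the median change was -0.21 (all genes 0.01), 63 of 75 estimates were negative, and 0 genes were higher and 4 lower (NDUFA12, NDUFB1, ATP5MF and ATP5MK), against 2.01% and 1.74% of all genes. Without replicate 1 the median was -0.09 and only NDUFB1 was called, with 0.635% of all genes called in each direction, and under median scaling the 18 arrays gave no call. In T15-2 the median was -0.09 (all genes 0.01), but 0.02 under median scaling (all genes 0.12), and 57 of 75 estimates with quantile normalisation were negative, 28 of them among the 31 of complex I. No gene of the 75 passed limma's adjusted threshold in T15-2 with 18 arrays, where 4.43% of all genes were higher and 4.00% lower, and 9 had an unadjusted p below 0.05. With 17 arrays 4 were lower (4.64% and 4.53% of all genes higher and lower): NDUFB2 by -0.43, ATP5MC1 by -0.43, NDUFB7 by -0.30 and NDUFA11 by -0.29. The DMSO arrays of each line serve only that line's comparison here, while all 3 comparisons share the estimate of spread.

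NDUFB1, an accessory subunit of the membrane arm of complex I, was the gene whose fall in ER3 did not rest on the array that stood apart. It read 5.94, 5.54 and 6.05 in DMSO and 5.11, 5.43 and 5.13 under erlotinib, which are dim values. All erlotinib values lay below all DMSO values, and the companion arrays of replicate 1 showed it as well. The gene fell by 0.62 ± 0.12 (1.53-fold, limma adjusted p = 0.0093), and without replicate 1 by 0.56 (limma adjusted p = 0.0478), while median scaling gave -0.45 (limma adjusted p = 0.0642). The other 3 calls were lost without replicate 1, and also without ER3 DMSO replicate 1 or 3. ATP5MF read 11.61, 11.31 and 11.59 in DMSO and 10.04, 11.20 and 11.09 under erlotinib, a change of -0.73 ± 0.19 (limma adjusted p = 0.0408) that became -0.36 (limma adjusted p = 0.0946) without it. ATP5MK, a small membrane subunit of ATP synthase, changed by -0.47 (limma adjusted p = 0.0494) and then -0.35 (limma adjusted p = 0.218), and was lost whichever ER3 array was left out (limma adjusted p = 0.0502 to 0.218). NDUFA12, an accessory subunit at the base of the peripheral arm, changed by -0.42 (limma adjusted p = 0.0463) and then -0.27 (limma adjusted p = 0.214).

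Responses of the sublines were then set against that of HCC827 by testing the difference of differences. The ER3 response was lower than the HCC827 response for 8 of the 75 genes and higher for 1, against 10.4% and 11.6% of all genes, with a median difference of -0.28 (all genes -0.01). Without replicate 1 the median was -0.12, and 4 genes were lower and 1 higher (8.45% and 9.34% of all genes). Median scaling brought the median of all genes to 0.25 in this difference, and the split of calls became 5 higher and 1 lower. Relative to all genes, the median of the 75 was -0.28 with quantile normalisation and -0.17 with median scaling. For T15-2 the response was lower for 2 genes and higher for 0, against 5.90% and 7.17% of all genes, with 0 lower and 2 higher under median scaling, which brought the median of all genes to 0.24. With 17 arrays it was lower for 4 genes (NDUFB1, SDHA, UQCR10 and NDUFB7) and higher for 0, against 6.28% and 7.45% of all genes. Both differences use the same HCC827 arrays.

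The response differences of NDUFB1 and SDHA were called in both sublines, those in T15-2 narrowly: 16 of 22 alternatives lost the call for NDUFB1 in T15-2 and 12 of 22 that for SDHA. For NDUFB1 the HCC827 values were 5.97, 5.69 and 5.89 in DMSO and 6.03, 6.04 and 6.22 under erlotinib, a change of 0.25 that did not pass the test (limma adjusted p = 0.109). In T15-2 it read 5.65, 5.63 and 5.73 and then 5.38, 5.39 and 5.41, a change of -0.28 (limma adjusted p = 0.17) without overlap. Its response minus that of HCC827 was -0.87 in ER3 (limma adjusted p = 0.00129; -0.81 and 0.00471 without replicate 1), and -0.53 in T15-2 (limma adjusted p = 0.0457). For SDHA, which rose in HCC827, the groups overlapped in both sublines. It read 10.47, 10.26 and 10.36 and then 10.40, 10.29 and 10.29 in ER3, and 10.76, 10.67 and 10.56 and then 10.59, 10.58 and 10.80 in T15-2. The differences from HCC827 were -0.48 (limma adjusted p = 0.0218) in ER3 and -0.45 (limma adjusted p = 0.0444) in T15-2, and neither these nor the NDUFB1 difference in T15-2 passed under median scaling.

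NDUFV3 was the gene with a higher response in ER3. Against its fall in HCC827, it read 6.61, 6.66 and 6.48 in ER3 with DMSO and 6.59, 6.69 and 6.89 with erlotinib, an overlapping pair of groups. The difference of responses was 0.70 (limma adjusted p = 0.00718, or 0.77 and 0.00755 without replicate 1). The second NDUFV3 probe did not pass for the fall in HCC827, nor for ER3 against HCC827 under erlotinib. COX6B1, a complex IV subunit facing the intermembrane space, differed by -0.64 (limma adjusted p = 0.0139; -0.44 and 0.0241 without replicate 1), and NDUFA12 by -0.63 (limma adjusted p = 0.00983; -0.47 and 0.0241). Under median scaling NDUFB1 and NDUFV3 passed and the other 7 did not. The remaining 4 calls were lost without replicate 1. UQCR10, a small subunit of complex III, went from -0.74 to -0.48 (limma adjusted p = 0.0265, then 0.0527), and ATP5IF1, the inhibitor of ATP hydrolysis, from -0.74 to -0.51 (limma adjusted p = 0.0247, then 0.0669). ATP5F1D, the delta subunit, went from -0.45 to -0.32 (limma adjusted p = 0.0419, then 0.119), and ATP5PD, the stalk subunit d, from -0.38 to -0.28 (limma adjusted p = 0.0489, then 0.132).

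**Figure D4:**
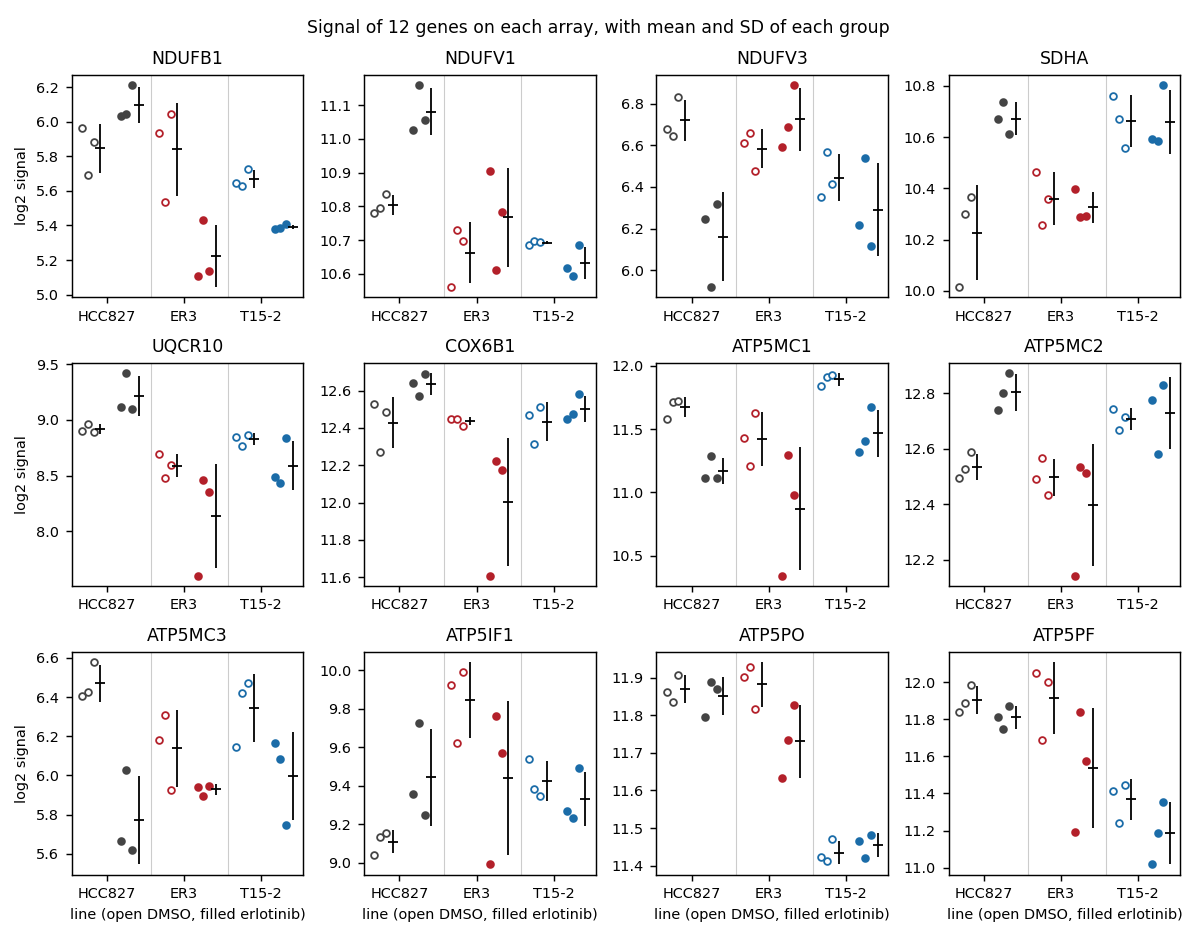
Log2 signal of 12 genes on each array, open circles for DMSO and filled circles for erlotinib, with the mean and SD of each group of 3 as a line and bar; each panel has its own vertical axis. SDHA is higher with erlotinib in HCC827 (10.61 to 10.74 against 10.02 to 10.37) and the groups overlap in ER3 and T15-2.

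The lines themselves were compared in DMSO. In ER3 3 genes were higher and 4 lower than in HCC827, against 16% and 19% of all genes, with a median of -0.06 (all genes -0.02); without the ER3 erlotinib array that stood apart 8 were higher and 7 lower (16.4% and 19.3%). Median scaling brought the median of all genes to -0.22 here and gave 1 higher and 25 lower, with the 75 genes then at -0.08 relative to all genes. In T15-2 8 genes were higher and 3 lower than in HCC827 (15.9% and 16.3% of all genes; median 0.04, all genes 0.01), or 10 and 5 with 17 arrays (16.5% and 16.6%), and median scaling, which brought the median of all genes to -0.12, gave 1 higher and 5 lower. Between the sublines, T15-2 had 11 genes higher and 3 lower than ER3 (17.8% and 15.5% of all genes; median 0.10), or 15 and 4 with 17 arrays (18.2% and 15.8%), and 13 higher and 1 lower under median scaling. Each line's DMSO arrays serve in more than 1 of these comparisons.

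ATP5IF1 had the largest line difference of the 75 in ER3. This protein binds ATP synthase and blocks ATP hydrolysis when the proton gradient fails. It read 9.04, 9.14 and 9.15 in HCC827, 9.92, 9.62 and 9.99 in ER3 and 9.54, 9.38 and 9.35 in T15-2. ER3 was highest, T15-2 lay between, and no values overlapped. ER3 exceeded HCC827 by 0.73 ± 0.16 (1.66-fold, limma adjusted p = 0.0013), T15-2 differed from ER3 by -0.42 (limma adjusted p = 0.0486, or 0.109 under median scaling), and T15-2 against HCC827 gave 0.31 (limma adjusted p = 0.144). The other probe of ATP5IF1 gave 0.47 for ER3 against HCC827 (limma adjusted p = 0.0176).

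The largest called difference below 0 in ER3 was in complex I. NDUFA9, an accessory subunit near the ubiquinone site, read 10.58, 10.55 and 10.56 in ER3, against 10.88, 11.02 and 11.08 in HCC827 and 10.96, 10.86 and 10.92 in T15-2. The ER3 values were tight and below all others, a change of -0.43 ± 0.08 from HCC827 (limma adjusted p = 0.000377). NDUFS3, a core subunit of the ubiquinone module, differed by -0.25 (limma adjusted p = 0.0446). In complex V ATP5MJ, a small proteolipid of the membrane part, read 9.62, 9.63 and 9.66 against 10.04, 10.01 and 9.92 in HCC827, a change of -0.35 (limma adjusted p = 0.0102). ATP5F1A differed by -0.28 (limma adjusted p = 0.0314), while ATP5F1C differed by 0.31 (limma adjusted p = 0.0458). With quantile normalisation the alpha and gamma subunits of ATP synthase were thus called in opposite directions. COX7A2 of complex IV read 13.14, 13.14 and 13.17 against 12.80, 12.78 and 12.83, a change of 0.35 (limma adjusted p = 0.0329). Neither COX7A2 nor ATP5F1C passed under median scaling, where ATP5IF1 still did.

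In T15-2 the higher genes included accessory, core and catalytic subunits. NDUFB2, of the complex I membrane arm, read 11.67, 11.66 and 11.69 against 10.98, 11.10 and 10.99 in HCC827, a change of 0.65 ± 0.16 (1.57-fold, limma adjusted p = 0.00371). ATP5MK read 9.05, 8.84 and 9.05 against 8.37, 8.22 and 8.53, a change of 0.61 ± 0.13 (1.53-fold, limma adjusted p = 0.00111). Neither gene's groups overlapped. NDUFB10 was higher by 0.47 (limma adjusted p = 0.00528), UQCR11, a small subunit of complex III, by 0.45 (limma adjusted p = 0.0111), SDHA by 0.44 (limma adjusted p = 0.0025) and cytochrome c1, CYC1, by 0.27 (limma adjusted p = 0.028). The differences of ATP5MK, NDUFB10, UQCR11, SDHA and CYC1 did not pass under median scaling. NDUFS1, the iron-sulphur core subunit of the NADH module, was higher in T15-2 than in ER3 by 0.56 (limma adjusted p = 0.00203).

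Of 4 tested peripheral stalk genes of ATP synthase, 2 were lower in T15-2. ATP5PO (OSCP) and ATP5PF (F6), whose promoters are printed above, belong to the peripheral stalk that holds the catalytic head still. ATP5PO read 11.42, 11.41 and 11.47 in T15-2 against 11.86, 11.84 and 11.91 in HCC827 and 11.90, 11.93 and 11.82 in ER3. ATP5PF read 11.41, 11.24 and 11.45 against 11.84, 11.89 and 11.98 in HCC827 and 12.05, 11.69 and 12.00 in ER3. T15-2 was below both other lines on every array for both genes. Against HCC827 ATP5PO fell by 0.43 ± 0.08 (limma adjusted p = 0.000232) and ATP5PF by 0.54 ± 0.13 (limma adjusted p = 0.00453), and against ER3 by 0.45 (limma adjusted p = 0.000184) and 0.54 (limma adjusted p = 0.00398); under median scaling ATP5PO did not pass against ER3 (-0.38, limma adjusted p = 0.0532). The other 2 probes of ATP5PF gave -0.45 (limma adjusted p = 0.0128) and -0.33 (limma adjusted p = 0.0782) against HCC827. Under erlotinib T15-2 differed from HCC827 by -0.40 for ATP5PO (limma adjusted p = 0.000349) and by -0.62 for ATP5PF (limma adjusted p = 0.000837), and median scaling ended both calls, at -0.14 (limma adjusted p = 0.477) and -0.38 (limma adjusted p = 0.0557). The stalk subunits b and d, ATP5PB and ATP5PD, were not called between T15-2 and HCC827 in DMSO.

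Both stalk genes lie on chromosome 21, and that chromosome as a whole was lower in T15-2. Of 125 tested genes there, 59 (47.2%) were lower than in HCC827 in DMSO, with a median of -0.27, against 16.3% of all genes. The third subunit gene of the chromosome, NDUFV3, was at -0.28 (limma adjusted p = 0.0949). Chromosome 7, which carries NDUFB2, was shifted the other way in T15-2, with 259 of 554 genes (46.8%) higher and a median of 0.28. In ER3 304 of 640 genes (47.5%) of chromosome 6, which carries COX7A2, were higher, as were 350 of 1193 (29.3%) of chromosome 1, which carries ATP5IF1, and 144 of 381 (37.8%) of chromosome 14, which carries ATP5MJ and NDUFB1, were lower. Chromosome 14 was also lower in T15-2, with 110 of 381 genes (28.9%), and no subunit gene on it was called there in DMSO. The remaining called genes lie on chromosomes with a smaller excess over all genes, or with none. In ER3 12.4% of genes of chromosome 10, which carries ATP5F1C, were higher, against 16.0% of all genes. In T15-2 the shares higher were 15.1% for chromosome 10 (ATP5MK), 14.1% for chromosome 19 (UQCR11) and 17.2% for chromosome 8 (CYC1), against 15.9% of all genes. How far a gene's difference follows its chromosome was not tested.

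**Figure D5:**
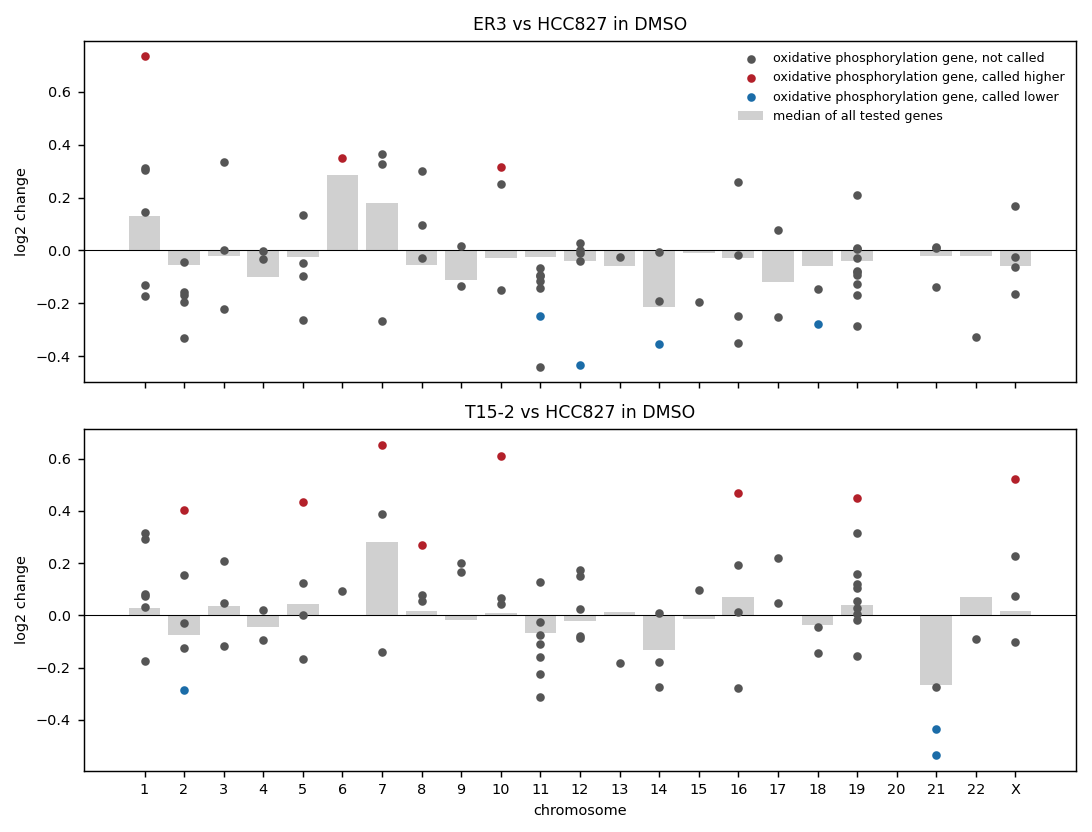
Bars give the median log2 difference from HCC827 in DMSO of all tested genes of each chromosome, for ER3 and for T15-2, and dots give the subunit genes on it. Chromosome 21 is at -0.27 and chromosome 7 at 0.28 in T15-2, and chromosome 6 at 0.28 in ER3.

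With quantile normalisation, the comparison with the most called subunit genes was ER3 against HCC827 under erlotinib. In ER3 34 of the 75 genes were lower than in HCC827 and 2 higher, against 23% and 21.6% of all genes, with a median of -0.28 (all genes -0.01). Without replicate 1, 28 were lower and 6 higher, against 20.7% and 19.1% of all genes, and the median was -0.14. Under median scaling 15 were lower and 2 higher, and the 75 genes lay at -0.19 relative to all genes. The lower genes were spread over the complexes: 16 of 31 in complex I, 1 of 3 in complex II, 3 of 9 in complex III, 5 of 11 in complex IV, 7 of 16 in complex V and 2 of the 5 others. With 17 arrays these were 13, 1, 3, 4, 5 and 2. No test of the set as a whole was made. T15-2 had 11 lower and 5 higher than HCC827 (20.7% and 21.9% of all genes; median -0.05), or 17 and 7 with 17 arrays (21% and 22.2%). Median scaling turned the median relative to all genes from -0.07 to 0.04 in T15-2, with 13 genes higher and 2 lower, so no common direction can be given for that subline.

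UQCR10 and NDUFB1 were lower in both sublines. UQCR10 read 9.12, 9.42 and 9.10 in HCC827 under erlotinib, 7.60, 8.46 and 8.35 in ER3 and 8.49, 8.44 and 8.84 in T15-2. HCC827 was above every subline array. ER3 differed by -1.07 ± 0.16 on the log2 scale (2.10-fold lower, limma adjusted p = 2.32e-05), or -0.80 without replicate 1 (limma adjusted p = 4.35e-05), and T15-2 by -0.62 (limma adjusted p = 0.00422). The other 2 UQCR10 probes gave -0.78 and -0.51 in ER3. NDUFB1 differed by -0.87 ± 0.12 in ER3 (1.83-fold, limma adjusted p = 6.81e-06), by -0.81 without replicate 1 (limma adjusted p = 9.44e-05), and by -0.71 in T15-2 (limma adjusted p = 8.13e-05).

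Further genes were lower in ER3 under erlotinib by a margin that shrank without replicate 1. NDUFA3 went from -0.85 to -0.38 (limma adjusted p = 0.00652, then 0.0109), UQCRQ from -0.72 to -0.41 (limma adjusted p = 0.00114, then 0.0011) and COX6B1 from -0.63 to -0.43 (limma adjusted p = 0.000366, then 0.00147). COX5B of complex IV went from -0.54 to -0.29 (limma adjusted p = 0.00332, then 0.0128), ATP5MG (subunit g) from -0.54 to -0.26 (limma adjusted p = 0.00672, then 0.0304), and ATP5MJ from -0.64 to -0.50 (limma adjusted p = 3.45e-05, then 0.000156). SDHA, which was not low on replicate 1, was at -0.35 and then -0.38 (limma adjusted p = 0.00875, then 0.012), but at -0.19 under median scaling (limma adjusted p = 0.36). Higher in ER3 were NDUFV3, at 0.56 and then 0.63 (limma adjusted p = 0.000929, then 0.0012), and UQCR11, which read 6.15, 5.82 and 6.00 against 5.54, 5.50 and 5.29 in HCC827, at 0.55 and then 0.47 (limma adjusted p = 0.0017, then 0.0132). The second NDUFV3 probe gave 0.15 (limma adjusted p = 0.329).

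In T15-2 under erlotinib NDUFS1 was higher, at 6.50, 6.42 and 6.28 against 5.77, 5.55 and 5.85 in HCC827, a change of 0.68 ± 0.13 (1.60-fold, limma adjusted p = 0.000209). NDUFA10, an accessory subunit of complex I, read 7.96, 8.05 and 8.14 against 8.54, 8.64 and 8.59, a change of -0.54 (limma adjusted p = 0.000156), or -0.36 under median scaling (limma adjusted p = 0.0705). Neither pair of groups overlapped. NDUFB5 was higher by 0.26 (limma adjusted p = 0.0156), ATP5MK by 0.39 (limma adjusted p = 0.0191) and UQCR11 by 0.38 (limma adjusted p = 0.0223), and UQCRC1, a core subunit of complex III, differed by -0.31 (limma adjusted p = 0.0064), or -0.10 under median scaling (limma adjusted p = 0.588). ATP5F1D differed by -0.47 (limma adjusted p = 0.00162), but its probes were called in opposite directions, at -0.47 (limma adjusted p = 0.00191) and 0.55 (limma adjusted p = 0.011), and the mean of the probes gave 0.04 (limma adjusted p = 0.822), so no direction can be given. It was the single such pair among the 22 subunit genes with several probes.

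Other genes of the pathway were counted in lists of their own. Of 45 tested assembly factors, which insert cofactors and join subunits, erlotinib raised 4 and lowered 16 in HCC827 (median -0.16), where 19.2% of all genes were higher and 18.5% lower. It lowered 3 in ER3 (1.74% of all genes), or 1 without replicate 1 (0.635%), and 5 in T15-2 (4.00%). TMEM70, which helps assemble the subunit c ring, fell by 1.43 ± 0.13 in HCC827 (limma adjusted p = 6.48e-08) and by 0.53 in T15-2 (limma adjusted p = 0.0155), and in DMSO it was at -1.92 in ER3 (limma adjusted p = 8.55e-10) and -1.11 in T15-2 (limma adjusted p = 1.9e-06) against HCC827. Cytochrome c, CYCS, fell by 1.09 ± 0.15 (limma adjusted p = 8.63e-06) and HCCS, the lyase that attaches its haem, by 0.75 (limma adjusted p = 3.59e-05) in HCC827. CYCS changed by -0.40 in ER3 (limma adjusted p = 0.14) and -0.38 in T15-2 (limma adjusted p = 0.12), and both differences from HCC827 passed the test, at 0.70 (limma adjusted p = 0.0224, or 0.0651 without replicate 1) and 0.71 (limma adjusted p = 0.0301).

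Of 17 tested regulators and mitochondrial DNA factors, 8 fell in HCC827 (18.5% of all genes) and none rose (19.2%; median -0.38), whereas none was called in either subline, where 3 in ER3 and 7 in T15-2 had an unadjusted p below 0.05 in the same test. In those sublines 2.01% and 4.43% of all genes were higher and 1.74% and 4.00% lower. PPRC1, a coactivator of NRF1 target genes, fell by 1.45 ± 0.12 (limma adjusted p = 1.42e-08), against -0.05 in ER3 and -0.27 in T15-2, and those responses differed from HCC827 by 1.40 (limma adjusted p = 8.45e-06) and 1.17 (limma adjusted p = 9.76e-05). TFAM, which packages and transcribes mitochondrial DNA, fell by 0.58 (limma adjusted p = 3.26e-05) and MYC by 0.49 (limma adjusted p = 0.000486). The subunit genes' own median in the same comparison was -0.01. Of 16 tested genes of the tricarboxylic acid cycle, 3 rose and 3 fell in HCC827, close to the 19.2% and 18.5% of all genes, 1 fell in ER3 and none was called in T15-2, where 1 had an unadjusted p below 0.05.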

How the data were processed

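Intensities per probe, with a detection p-value for each, were exported from BeadStudio without normalisation by the authors, per the submitters' processing notes and the file headers, and the deposited table held 18 arrays and 0 columns of other samples. The deposited p-value is the array software's detection p-value. No source used here gives its version. Probe symbols came from GEO's platform annotation and were updated through RefSeq: 28093 probes had 1 symbol.

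Intensities were background-corrected (normexp on the detection p-values), given an offset of 16, quantile-normalised and set to log2 with limma's neqc (limma 3.58.1, R 4.3.3). Probes with a detection p-value below 0.05 on at least 3 arrays were kept (19931, of which 15759 had 1 symbol), and each gene was represented by its probe of highest mean signal over all arrays. All 6 groups entered a single linear model with eBayes, without covariates. The 10 comparisons were each adjusted by Benjamini-Hochberg over 11820 genes. The procedure was tested on simulated data with known changes in 200 genes. For erlotinib against DMSO in ER3 it recovered 98.5% of 2-fold, 70.1% of 1.5-fold and 16.7% of 1.25-fold changes, and 6.06% of its calls were false. Small changes can therefore go uncalled. The simulated noise was drawn for each gene on its own, unlike the deviation that many genes shared on ER3 erlotinib replicate 1.

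Members and lists were chosen with earlier results of these data known. Named were, per comparison and complex, up to 2 called genes with the largest rise and 2 with the largest fall, line differences over 1.5-fold in DMSO, tissue-restricted isoforms with their partners, ATP5IF1, the SDH subunits, and genes whose probes disagree. Others (such as NDUFB3, NDUFB7, NDUFA11, ATP5ME, ATP5PB, ATP5F1B, NDUFS7, NDUFS8, the genes added with 17 arrays and those of the other lists) were named after their values were seen. Replicate numbers are shared by the groups, but the deviations of same-numbered samples correlated at -0.402 to 0.234, so they were not taken as pairs. The number of arrays, 3 per group, limits the precision. Alternatives tried were median scaling, no background correction, the authors' processed values, other filters, the mean of a gene's probes, array weights, a replicate block, fits on the compared groups alone and leaving out each array.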

Additional observations from a re-analysis of the deposited data

Results flagged for a closer look

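Responses to erlotinib differed between the lines, by a test of the difference itself, for 9 subunit genes in ER3 against HCC827. These were 8 lower and 1 higher of 75, against 10.4% and 11.6% of all genes, so the count is no larger than that of genes in general. On the log2 scale the ER3 response minus that of HCC827 was -0.87 for NDUFB1, -0.74 for UQCR10, -0.74 for ATP5IF1, -0.64 for COX6B1, -0.63 for NDUFA12, -0.48 for SDHA, -0.45 for ATP5F1D, -0.38 for ATP5PD and 0.70 for NDUFV3. Of these, UQCR10, ATP5IF1, ATP5F1D and ATP5PD did not pass the test without ER3 erlotinib replicate 1. The probes of ATP5F1D were called in opposite directions in T15-2 against HCC827 under erlotinib. In T15-2 against HCC827 the difference was -0.53 for NDUFB1 and -0.45 for SDHA, where 5.90% of all genes were lower and 7.17% higher. Under median scaling, NDUFB1 at -0.62 (limma adjusted p = 0.0183) and NDUFV3 at 1.00 (limma adjusted p = 0.00196) in ER3 still passed. The second NDUFV3 probe did not pass for the HCC827 fall that enters this difference.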

How the results depend on the processing

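Counts of called subunit genes depended on the scaling, on the spread estimate and on which arrays were used. No share of all genes stands beside the counts in this section, so they describe that dependence alone. Median scaling gave 0 calls for erlotinib in ER3, 26 for ER3 against HCC827 in DMSO, 6 for T15-2 against HCC827 in DMSO and 17 for ER3 against HCC827 in erlotinib, and medians of -0.19 for erlotinib in HCC827, 0.0208 in T15-2, -0.30, -0.0821 and 0.20 for ER3 and T15-2 against HCC827 and T15-2 against ER3 in DMSO, 0.15 for T15-2 against HCC827 in erlotinib, and 0.0798 and 0.17 for the response differences of ER3 and T15-2. Without background correction there were 16, 1 and 19 calls for erlotinib in ER3, in T15-2 and for the ER3 response difference, and the authors' values gave 16, 1 and 19. Without a filter there was 1 call each for erlotinib in ER3, in T15-2 and for the T15-2 response difference, and the strict filter (detection p-value below 0.01) gave 1 for T15-2. The mean of a gene's probes gave 2 for erlotinib in T15-2, 11 for ER3 against HCC827 in DMSO and a median of -0.00527 for T15-2 against HCC827 in erlotinib. Array weights, chosen after seeing the data like the fit of 17 arrays, gave 10, 15, 30 and 10 for erlotinib in T15-2, ER3 against HCC827 in DMSO, T15-2 against HCC827 in erlotinib and the T15-2 response difference. Fits on the compared groups alone gave 17, 0 and 2 for erlotinib in HCC827, ER3 and T15-2, 17 for T15-2 against HCC827 in DMSO and 4 for the T15-2 response difference. With the replicate number as a block, the counts in the order of comparisons (erlotinib in HCC827, ER3 and T15-2; ER3 and T15-2 against HCC827 and T15-2 against ER3 in DMSO; ER3 and T15-2 against HCC827 in erlotinib; the response differences of ER3 and T15-2) were 8, 2, 0, 6, 11, 13, 35, 16, 7 and 0; the block is given only as a number, since the samples were not shown to be paired. Leaving out each array gave, in that order, 5 to 15, 1 to 17, 0 to 4, 3 to 15, 8 to 15, 7 to 19, 29 to 43, 13 to 24, 4 to 25 and 0 to 4 calls. The highest counts for ER3, 17 and 25, came without ER3 erlotinib replicate 2, and the lowest, 1, without ER3 DMSO replicate 1 or 3 or erlotinib replicate 1. The medians then ran from -0.02 to 0.02, -0.27 to -0.09, -0.11 to -0.08, -0.09 to -0.02, 0.02 to 0.05, 0.08 to 0.12, -0.33 to -0.14, -0.07 to -0.02, -0.34 to -0.12 and -0.13 to -0.07. The cause was not tested for any of these.

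Over 107 pairs of a called gene and a comparison and 1729 alternatives, 1450 kept direction and side of the threshold, 277 no longer passed and 2 reversed: NDUFV1 with erlotinib in HCC827 under median scaling (-0.00299) and ATP5F1D in T15-2 against HCC827 in erlotinib with the mean of probes (0.0396). ATP5MC3, NDUFAB1 and NDUFV3 with erlotinib in HCC827, ATP5IF1 and NDUFA9 in ER3 and ATP5PF, ATP5PO and NDUFB2 in T15-2 against HCC827 in DMSO, and NDUFB1 and UQCR10 in both sublines against HCC827 in erlotinib passed under all alternatives run. The second NDUFV3 probe, taken alone, did not pass with erlotinib in HCC827. A block for the BeadChip was not run, because no source used here gives the chip.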
